A study of Mus musculus with 16 samples.

Results

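Gpnmb, Trem2, Msr1, Ctsk, Cd63, Fabp5, Lpl and Cd36 are 8 mouse genes used together to mark lipid-associated macrophages. They were chosen by symbol, with earlier results of these arrays known, and all 8 were found among the 19938 genes that a probe set of the arrays names alone. Where a gene had several such probe sets, the one with the highest mean over the 16 arrays was used, which mattered only for Fabp5. Its 2 probe sets list the same transcripts and differed by at most 0.15 on the log2 scale in any array.

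RNA came from sorted lung cells that carry CD11b, CD11c and MHC2, the antigen-presenting molecule; the labels call them CD11b+ dendritic cells (DCs). There were 8 arrays titled tumoral, from lung tumour tissue, and 8 titled peritumoral, from the lung tissue beside it. All hosts were C57BL/6 mice that carried an orthotopic tumour of Lewis lung carcinoma (LLC), a mouse lung carcinoma line of the same strain placed in the airways, so neither group comes from tumour-free lung. The labels name no animal, pool, age, sex or time after inoculation, so the spread between arrays may be technical in part.

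Lipid-associated macrophages take up lipoproteins, dying cells and free fatty acids, break them down in lysosomes, and have been described in fat tissue, atherosclerotic plaques and tumours. In such cells the receptor TREM2 senses lipids and signals through the adaptor TYROBP, the scavenger receptors MSR1 and CD36 bring in modified lipoproteins and fatty acids, and lipoprotein lipase releases fatty acids from triglyceride. FABP5 carries these fatty acids inside the cell, whereas GPNMB, CD63 and cathepsin K belong to the lysosomal and endosomal compartment. None of the 8 genes is restricted to macrophages, since LPL and CD36 are also made by adipocytes, muscle or endothelium and cathepsin K by osteoclasts and fibroblasts.

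The sort markers and the cell type markers were examined first. On average the CD11c gene Itgax stood at 11.62 in tumoral arrays and 11.47 in peritumoral arrays, and the CD11b gene Itgam at 11.31 in tumoral and 11.22 in peritumoral arrays. H2-Ab1, for a chain of MHC2, stood at 13.25 in tumoral and 13.21 in peritumoral arrays. Dendritic cell markers were present in all arrays but not at an even level: Flt3, the growth factor receptor of conventional dendritic cells, measured between 8.74 and 10.45 in tumoral arrays and between 8.73 and 10.32 in peritumoral arrays. Peritumoral 4 stood apart. Its value for the list of endothelial markers, taken as the mean over 9 genes of the deviation from each gene's mean over all arrays, was 3.66, and peritumoral 7 followed with 1.44, against -0.57 to -0.43 in tumoral arrays and -0.37 to 0.19 in the remaining peritumoral arrays. In these sorted bulk samples fewer cells of a type and less RNA per cell cannot be told apart.

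The values of 6 of the 8 genes repeated with the position of the array in the deposited order, which runs from peritumoral 1 to 8 and then from tumoral 1 to 8. Gpnmb, Trem2, Msr1, Ctsk, Cd63 and Fabp5 went through a low, an intermediate and a high value and began again after 3 arrays, in both title groups. Set 1 holds positions 1, 4, 7 and so on, which are tumoral 2, 5 and 8 and peritumoral 1, 4 and 7. Set 2 holds tumoral 3 and 6 and peritumoral 2, 5 and 8. Set 3 holds tumoral 1, 4 and 7 and peritumoral 3 and 6. The sets rest on position alone and were formed after the repeat had been seen. No label names a property that repeats in this way, so they are not groups of the study, and their values are a description with no test.

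**Figure D1:**
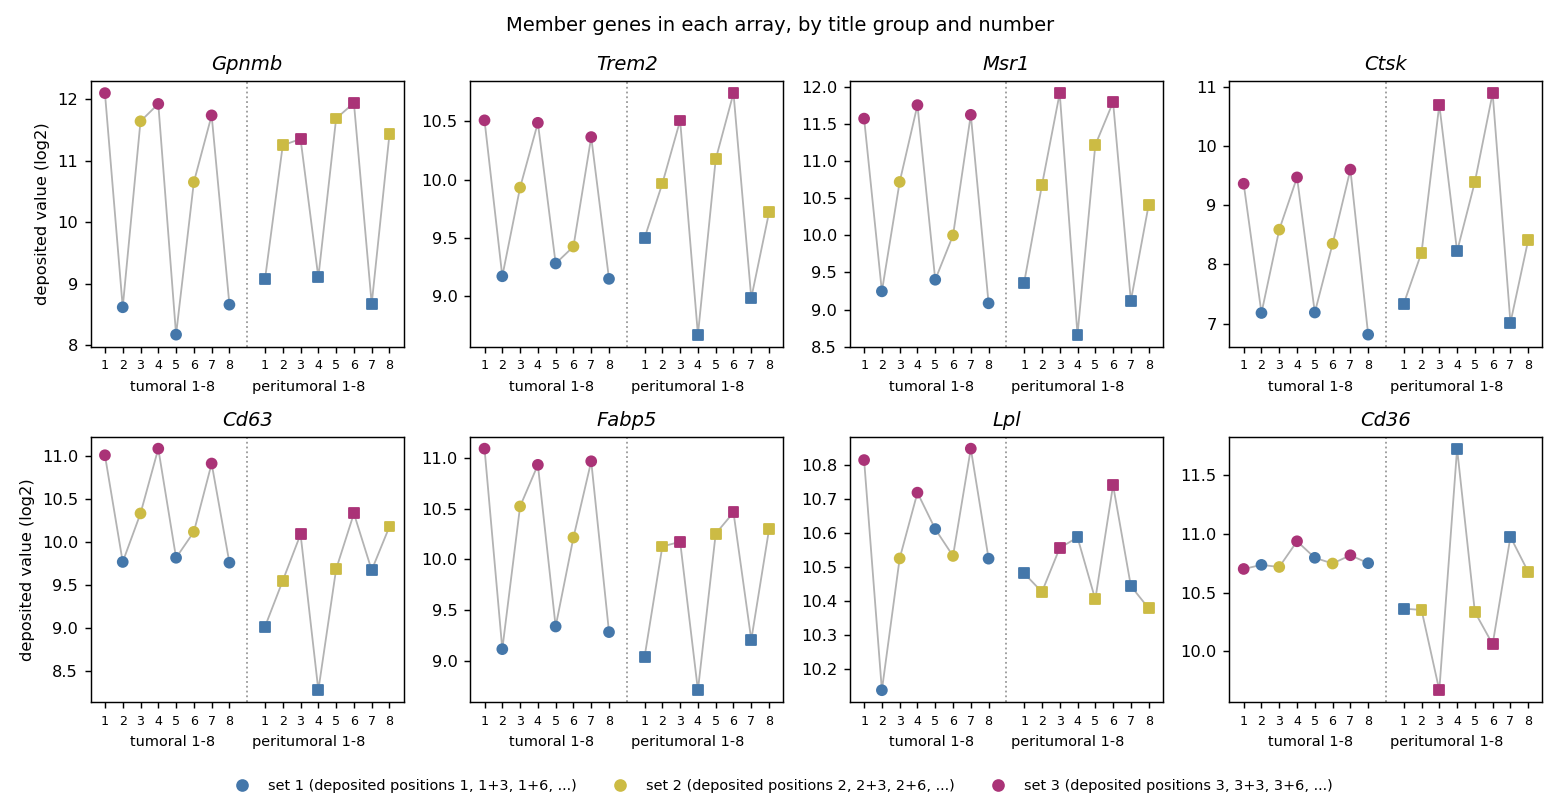
Deposited value (log2) of each of the 8 genes in every array, with tumoral 1 to 8 at the left of each panel and peritumoral 1 to 8 at the right; circles are tumoral arrays, squares are peritumoral arrays, and colours mark the sets of positions. Gpnmb stays at or below 9.10 in all 6 arrays of set 1 and at or above 10.65 in the other arrays, whereas Cd36 stays between 10.70 and 10.94 in all tumoral arrays.

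The distance between the medians of sets 3 and 1 was 3.26 for Gpnmb, 2.57 for Msr1, 2.42 for Ctsk, 1.77 for Fabp5, 1.35 for Trem2 and 1.20 for Cd63, on the log2 scale. Gpnmb encodes a membrane glycoprotein of late endosomes and lysosomes that rises in lipid-loaded macrophages. It measured 12.10, 8.62, 11.64, 11.93, 8.17, 10.65, 11.74 and 8.66 in tumoral 1 to 8. It measured 9.07, 11.25, 11.36, 9.10, 11.69, 11.94, 8.67 and 11.43 in peritumoral 1 to 8. The title groups overlapped over nearly their whole ranges, and the highest and lowest arrays, both tumoral, lay 3.93 apart on the log2 scale, or 15.2-fold. Over all genes the median of this distance was 0.65. By position, Gpnmb ran from 8.17 to 9.10 in set 1, from 10.65 to 11.69 in set 2 and from 11.36 to 12.10 in set 3, so that set 1 was separate and sets 2 and 3 overlapped.

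Ctsk encodes cathepsin K, a collagen-degrading cysteine protease. It measured 9.36, 7.18, 8.59, 9.47, 7.19, 8.35, 9.60 and 6.81 in tumoral 1 to 8. It measured 7.33, 8.20, 10.70, 8.22, 9.39, 10.90, 7.01 and 8.41 in peritumoral 1 to 8. The highest values of the gene were thus peritumoral 3 and 6, the lowest was tumoral 8, and the distance of 4.08 was the widest among the 8 genes. Within set 3 the titles did not overlap, with 9.36 to 9.60 in 3 tumoral and 10.70 to 10.90 in only 2 peritumoral arrays.

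Cd63 encodes a tetraspanin of late endosomes and of secreted vesicles. It measured 11.01, 9.77, 10.33, 11.08, 9.81, 10.12, 10.91 and 9.76 in tumoral 1 to 8. It measured 9.01, 9.55, 10.09, 8.28, 9.68, 10.33, 9.67 and 10.18 in peritumoral 1 to 8. All 3 tumoral arrays of set 3 were higher than any peritumoral array, whereas in set 2 peritumoral 8 lay above tumoral 6. Peritumoral 7 and 8 lay nearer to the tumoral arrays of their sets than the other peritumoral arrays did, at 9.67 against 9.76 to 9.81 in tumoral arrays of set 1, and at 10.18 against 10.12 to 10.33 in tumoral arrays of set 2.

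Of the receptors, Trem2 and Msr1 gave the cleanest repeat. Trem2, the lipid-sensing receptor, measured 10.51, 9.17, 9.93, 10.49, 9.28, 9.43, 10.37 and 9.15 in tumoral 1 to 8. It measured 9.50, 9.97, 10.51, 8.67, 10.18, 10.74, 8.99 and 9.72 in peritumoral 1 to 8. All 5 arrays of set 3 lay above every other array, from 10.37 to 10.74, and set 1 (8.67 to 9.50) overlapped set 2 (9.43 to 10.18) only by peritumoral 1 and tumoral 6.

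Msr1, the class A scavenger receptor for modified lipoproteins, measured 11.57, 9.24, 10.72, 11.75, 9.40, 9.998, 11.62 and 9.08 in tumoral 1 to 8. It measured 9.36, 10.67, 11.91, 8.66, 11.21, 11.79, 9.12 and 10.41 in peritumoral 1 to 8. It was the 1 member whose 3 sets did not overlap at all, at 8.66 to 9.40, 9.998 to 11.21 and 11.57 to 11.91. Over all genes 0.933% had sets in this order with no overlap and 0.221% had them in the reverse order. Set 1 lay below every other array in 3 members, Gpnmb, Msr1 and Fabp5, and in 1.96% of all genes, and set 3 lay above every other array in Trem2 and Msr1 and in 8.37% of all genes. The opposite cases, set 1 above every other array (0.426% of all genes) and set 3 below every other array (3.6%), held 0 members. These members had been chosen with this pattern known, so nothing is read from the counts.

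Fabp5, the intracellular fatty acid carrier, measured 11.09, 9.11, 10.52, 10.93, 9.34, 10.22, 10.97 and 9.28 in tumoral 1 to 8. It measured 9.04, 10.13, 10.17, 8.71, 10.25, 10.46, 9.21 and 10.30 in peritumoral 1 to 8. In set 3 the tumoral arrays (10.93 to 11.09) lay above the peritumoral arrays (10.17 and 10.46), whereas the 2 titles were 0.26 apart in set 1 and 0.14 apart in set 2, as means of tumoral minus peritumoral.

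Lpl and Cd36 did not repeat with the other members. Lpl, which encodes lipoprotein lipase, stayed within a range of 0.71, close to the median of all genes. It measured 10.82, 10.14, 10.53, 10.72, 10.61, 10.53, 10.85 and 10.52 in tumoral 1 to 8. It measured 10.48, 10.43, 10.56, 10.59, 10.40, 10.74, 10.44 and 10.38 in peritumoral 1 to 8. Tumoral 2 was the lowest array, and the medians of sets 1, 2 and 3 were 10.50, 10.43 and 10.74.

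Cd36, the fatty acid translocase and scavenger receptor, was nearly constant in tumoral arrays and variable in peritumoral arrays. It measured 10.70, 10.74, 10.72, 10.94, 10.80, 10.75, 10.82 and 10.75 in tumoral 1 to 8. It measured 10.36, 10.35, 9.67, 11.73, 10.33, 10.06, 10.98 and 10.68 in peritumoral 1 to 8. The SD was 0.08 in tumoral and 0.62 in peritumoral arrays (n = 8 each). Peritumoral 3 and 6, which were the highest arrays of Ctsk and among the highest of Msr1, were the lowest of Cd36. Its highest arrays, peritumoral 4 and 7, were those with the highest endothelial list values, and Cdh5, the cadherin of endothelial junctions, measured 12.09 and 10.29 in them, against 6.53 to 6.84 in tumoral arrays and 6.88 to 8.56 in the other peritumoral arrays. The part of endothelial RNA in the Cd36 values was not tested.

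Ranks across the 16 arrays describe the same split. Among Gpnmb, Trem2, Msr1, Ctsk, Cd63 and Fabp5, Spearman's rho of the 15 pairs ran from 0.64 to 0.96. Lpl had a rho of 0.46 to 0.58 with these 6 genes and Cd36 one of -0.60 to -0.03. The points share their libraries, their titles and the sets of positions, so these values are descriptions and carry no p.

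The sequences before the transcription starts of Gpnmb, Trem2 and Ctsk are shown as examples from genes that moved together over the arrays, chosen after the sequences and their matches had been seen. Of the 8 members the RefSeq promoter table (GRCm38.p6) lists 5, which include Cd63 and Cd36, whose windows were searched but are not printed. Each line gives the 250 bases before the start, 5′ to 3′ on the strand of the gene, which is the plus strand for all 3, at chr6:49036268-49036517 for Gpnmb, chr17:48346151-48346400 for Trem2 and chr3:95498960-95499209 for Ctsk. Capitals mark GAGGAA or its complement TTCCTC, the core bound by the myeloid factor PU.1, and TGANTCA, the AP-1 site.
Gpnmb: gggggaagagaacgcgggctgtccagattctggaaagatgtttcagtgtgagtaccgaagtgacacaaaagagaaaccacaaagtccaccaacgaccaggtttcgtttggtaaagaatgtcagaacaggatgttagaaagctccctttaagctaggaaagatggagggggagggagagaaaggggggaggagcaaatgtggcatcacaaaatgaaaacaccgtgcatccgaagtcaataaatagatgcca
Trem2: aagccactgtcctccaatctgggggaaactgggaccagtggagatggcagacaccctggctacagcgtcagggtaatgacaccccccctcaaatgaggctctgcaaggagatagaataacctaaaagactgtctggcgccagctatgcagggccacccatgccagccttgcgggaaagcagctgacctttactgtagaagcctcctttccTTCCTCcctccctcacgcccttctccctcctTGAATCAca
Ctsk: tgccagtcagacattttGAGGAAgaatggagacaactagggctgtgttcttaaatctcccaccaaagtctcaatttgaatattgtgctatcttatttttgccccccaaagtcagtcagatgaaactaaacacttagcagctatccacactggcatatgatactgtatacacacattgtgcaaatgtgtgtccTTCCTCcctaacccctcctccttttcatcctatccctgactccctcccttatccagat
Both strands were searched for 4 motifs, and no matches overlapped. GAGGAA was found once in Trem2, 40 bases before the start, in Ctsk at 233 and 58 bases and in Cd63 at 244 and 59 bases before it, and not in Gpnmb or Cd36, while 23.3% of the 32851 windows of this length in the table hold it. Of the 5 members TGANTCA was found in Trem2 alone, as TGAATCA 9 bases before the start, and in 6.75% of windows. Gpnmb held no match to any of the motifs. The E-boxes CACGTG and CATGTG, bound by MITF and its relatives, were in none of the 5 listed members and in 6.02% and 12.3% of windows. A match describes letters in these windows and is not a measured site.

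Against the titles, no member passed the test. limma compared the 8 tumoral with the 8 peritumoral arrays over all 19938 genes and called 0 at an adjusted p under 0.05, which is 0% of genes and 0 of the 8 members. An exact rank-sum test per gene, adjusted in the same way, also called 0. At an unadjusted p under 0.05 limma had 1116 genes higher (5.6%) and 1176 lower (5.9%) in tumoral arrays, among which the only member was Cd63. The ranges of the titles overlapped for all 8 members. Over all genes 0.00502% lay wholly above and 0.0802% wholly below in tumoral arrays. The count of called genes depended on single arrays: it was 128 without peritumoral 7 and 20 without peritumoral 8, with 0 members in either case. Without both it was 522 of the 19938 genes, again with 0 members, and 2052 of the 19938 when the sets of positions were also a block. In that last fit Cd63 (0.86, adjusted p = 0.000310), Fabp5 (0.42, adjusted p = 0.0103) and Ctsk (-0.82, adjusted p = 0.0177) passed in limma. Peritumoral 7 and 8 had been picked from the values of these arrays, so these calls support nothing.

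Cd63 had the largest difference of the 8 genes. It averaged 10.35 ± 0.58 in tumoral and 9.60 ± 0.68 in peritumoral arrays (SD, n = 8 each), a difference of 0.75 with a 95% interval of 0.15 to 1.35 (limma, adjusted p = 0.340). The difference was positive within each set of positions, at 0.79, 0.42 and 0.79 in sets 1, 2 and 3, and the titles did not overlap in sets 1 and 3. Titles were also separate for Gpnmb in set 1, Lpl in set 2 and Cd36 in sets 2 and 3. In set 3 they were separate for Msr1, Ctsk and Fabp5 as well. Each set holds only 2 or 3 arrays of a title, and the share of all genes separated in this way was not computed. Nothing is read from these separations. With the sets as a block, an alternative added after the data were seen, the Cd63 difference was 0.68 (limma, adjusted p = 0.0795). The sets were formed after the repeat had been seen in Cd63 itself, so the smaller p of the block fit supports nothing.

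For Fabp5 the mean was 10.18 ± 0.83 in tumoral and 9.78 ± 0.68 in peritumoral arrays (SD, n = 8 each). The difference of 0.40 had an interval of -0.32 to 1.12 (limma, adjusted p = 0.676), and it was 0.25 without peritumoral 4, the lowest array of this gene. With the sets as a block it was 0.35 (limma, adjusted p = 0.0843). Ctsk differed the other way, with 8.32 ± 1.13 in tumoral and 8.77 ± 1.44 in peritumoral arrays (SD, n = 8 each). Its difference of -0.45 (interval -1.68 to 0.77; limma, adjusted p = 0.796) moved with single arrays: it was -0.70 without peritumoral 7, but -0.15 without peritumoral 6, -0.18 without peritumoral 3, -0.24 without tumoral 8 and -0.29 without tumoral 2 or tumoral 5. With the sets as a block it was -0.65 (limma, adjusted p = 0.115). It was negative in all 3 sets, at -0.46, -0.20 and -1.32. For Fabp5 and Ctsk too the sets were formed after the repeat had been seen in these genes. The smaller p-values of their block fits therefore support nothing.

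Gpnmb, Trem2 and Msr1 had close means under both titles and wide intervals of the difference. Gpnmb averaged 10.44 ± 1.68 in tumoral and 10.57 ± 1.36 in peritumoral arrays (SD, n = 8 each), and its difference of -0.13 had an interval of -1.57 to 1.32. Trem2 differed by 0.01 (interval -0.62 to 0.64) and Msr1 by 0.03 (interval -1.09 to 1.15). The limma adjusted p-values of these 3 genes lay between 0.966 and 0.995, and the sign of each turned when single arrays were left out. With the sets as a block the intervals narrowed to -0.52 to 0.14 for Gpnmb, -0.32 to 0.16 for Trem2 and -0.41 to 0.18 for Msr1. The sets were formed after the repeat had been seen in these same genes. The narrowing follows from that choice and is no gain in precision.

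Lpl averaged 10.59 ± 0.22 in tumoral and 10.50 ± 0.12 in peritumoral arrays (SD, n = 8 each), with a difference of 0.09 (interval -0.10 to 0.27; limma, adjusted p = 0.728). It was 0.15 without tumoral 2, but 0.0499 without tumoral 7 and 0.0548 without tumoral 1. Cd36 averaged 10.78 ± 0.08 in tumoral and 10.52 ± 0.62 in peritumoral arrays (SD, n = 8 each), with a difference of 0.26 (interval -0.17 to 0.68; limma, adjusted p = 0.640). It was 0.13 without peritumoral 3 and 0.43 without peritumoral 4. Without peritumoral 4 and 7, the arrays with high endothelial markers, it was 0.53 (limma, adjusted p = 0.0521). These arrays were picked from the data and were also the highest of Cd36, so that fit supports nothing. Within the sets the Cd36 difference changed sign, at -0.26 in set 1, 0.28 in set 2 and 0.96 in set 3. Over the 8 genes the median difference was 0.06, against -0.02 over all genes, and 6 were higher and 2 lower in tumoral arrays. The number higher changed when single arrays were left out, from 4 to 7 over the 16 such fits. It was 4 without peritumoral 1, without peritumoral 4 and without peritumoral 7, since the differences of Trem2 and Msr1 were then negative. Of the 16 fits, Trem2 changed sign in 8 and Msr1 in 7. The change was thus not particular to peritumoral 4 and 7.

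**Figure D2:**
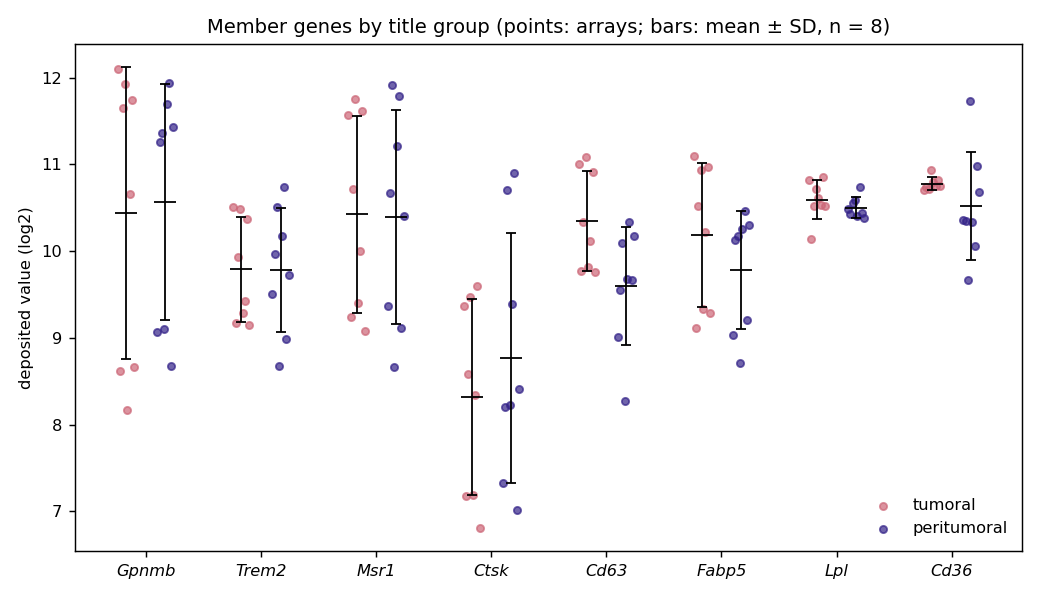
Deposited value (log2) of the 8 genes by title group, with tumoral arrays left of peritumoral arrays for each gene; points are arrays and bars give the mean ± SD (n = 8). The groups overlap for every gene, and Cd63 has the largest difference at 0.75.

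Other genes of lipid and lysosome handling were described from 9 lists. No list member passed between the titles (limma, adjusted over all genes), so the values below are log2 differences, tumoral minus peritumoral, that did not pass. The smallest adjusted p in any of these lists was 0.255, for Acsl5, an acyl-CoA synthetase that activates fatty acids, at 9.88 in tumoral and 9.56 in peritumoral arrays. In the list of TREM2 signalling, Clu, which encodes the lipid-binding ligand clusterin, differed by -0.39, and Plcg2, a phospholipase downstream of the receptor, by 0.13. Among lysosomal genes Npc2, a cholesterol transfer protein, differed by 0.15 and Lipa, the acid lipase, by 0.14. Among cathepsins Ctss differed by 0.19 and Ctsh by 0.13. Mrc1, the mannose receptor, and Scarb2, a lysosomal membrane protein, differed by 0.20 and 0.14. Their list of scavenger receptors had 5 genes higher and 8 lower in tumoral arrays. Dgat1, which makes triglyceride, differed by 0.35. Its list of fatty acid uptake and storage, which also holds Acsl5, had 6 genes higher and 7 lower. The proteoglycan gene Sdc1 differed by -0.31 and Lmf1, which matures lipoprotein lipase, by -0.08. Pdk4, a PPAR target, differed by -0.48 and Pltp, an LXR target, by 0.12. The tetraspanin genes Cd151 and Cd53 differed by -0.54 and 0.10. Among other genes of lipid-associated macrophages Emp1 differed by -0.26 and the urokinase receptor gene Plaur by 0.17.

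Over the sets of positions most genes of the lysosomal lists were ordered like the 6 members. Of 11 genes of MiT/TFE regulators and lysosome, 10 had medians ordered upward over sets 1, 2 and 3, and of 11 cathepsin and cystatin genes 9 did. Over all genes 28.9% were ordered upward and 29.3% downward. Among the members 6 of 8 were ordered upward and 0 downward, a count that the choice of members fixed in part. The lists too were chosen with earlier results of these data known, so their counts are a description. Tfec, a MiT family transcription factor of macrophages and osteoclasts, had medians of 7.995, 9.11 and 10.42 in sets 1, 2 and 3. Mitf, which drives Gpnmb and Ctsk in other cells, had 9.06, 9.37 and 9.79. Atp6v0d2, a subunit of the lysosomal proton pump, had 8.64, 10.14 and 11.00. The lysosomal proteases followed the same order, with Ctsl at 9.21, 10.35 and 11.41 and Ctsd at 11.02, 12.06 and 12.45, and so did the acid phosphatase gene Acp5 at 9.67, 10.32 and 11.30. The exceptions were Tfeb, at 8.52, 8.48 and 8.49, Ctsh, at 11.34, 11.32 and 11.33, and Cst3, the secreted protease inhibitor cystatin C, which was ordered downward at 13.20, 13.16 and 12.99.

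Of 18 other genes of lipid-associated macrophages 12 were ordered upward and 2, Itgax and Anxa2, downward. Among the 12 were Hmox1, the haem oxygenase gene, with medians of 10.12, 10.76 and 11.76, and Apoe at 12.45, 12.68 and 13.10. Lgals3, which encodes galectin-3, was at 11.82, 12.21 and 12.46. Of 13 genes of fatty acid uptake and storage 9 were ordered upward and 3, Dgat2, Lipe and Mgll, downward. The 9 included Plin2, the lipid droplet coat protein, at 11.30, 11.83 and 11.95 and the fatty acid transporter gene Slc27a1 at 8.45, 9.18 and 9.65. Plin2 and Fabp4 are counted in both of these lists. The scavenger receptor list was mixed, with 6 of 13 upward and 2 downward. TREM2 signalling was mixed as well: Tyrobp, the adaptor of the receptor, was at 12.32, 12.39 and 12.49, whereas Syk, the kinase it recruits, was at 10.87, 10.65 and 10.42. Of 11 PPAR and LXR genes 4 were upward. Nr1h3, which encodes LXR alpha, was at 7.81, 8.25 and 8.75, and Pparg, the lipid-sensing receptor needed for alveolar macrophages, was downward at 9.43, 9.32 and 9.04. Tetraspanins were evenly split with 4 of 10 each way, and of 6 partners of lipoprotein lipase 3 were upward and 2 downward.

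**Figure D3:**
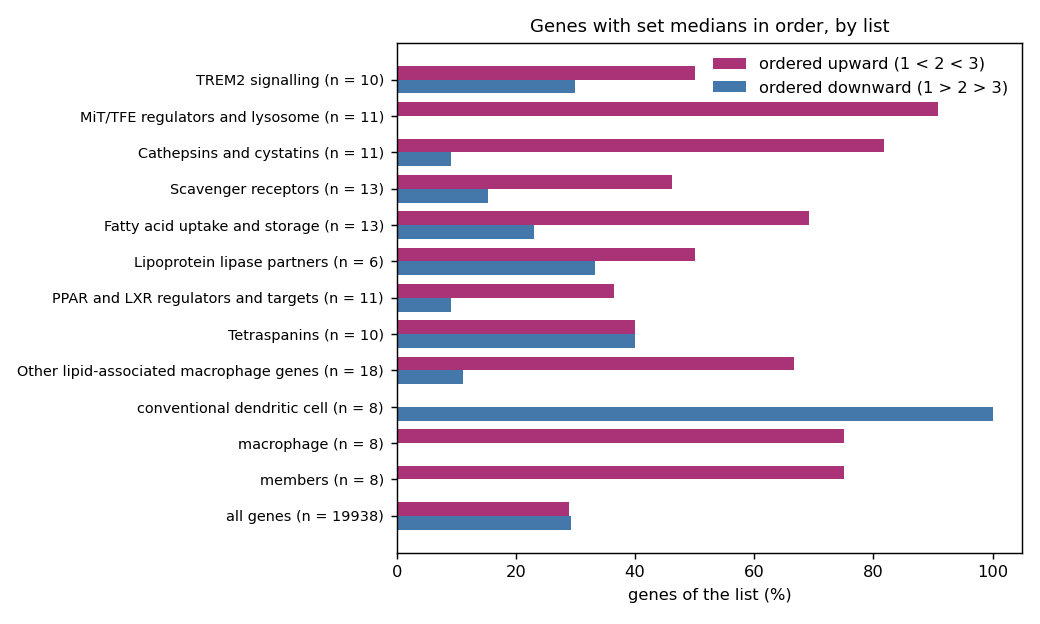
Share of genes (%) in each list whose medians are ordered upward or downward over sets 1, 2 and 3 of deposited positions, with the number of tested genes in brackets. Conventional dendritic cell genes are all downward, 10 of 11 genes of the MiT/TFE and lysosome list are upward, and all genes together are at 28.9% and 29.3%.

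Markers of other cell types moved with the same sets. All 8 conventional dendritic cell genes were ordered downward, with Flt3 at medians of 10.28, 9.90 and 8.78, Irf4, a transcription factor of these cells, at 10.55, 10.28 and 9.005, and Zbtb46, another of their transcription factors, at 8.43, 8.19 and 7.42. The mean deviation of this list ran from -0.18 to 0.54 in set 1, from -0.05 to 0.35 in set 2 and from -0.92 to -0.31 in set 3. Of 8 macrophage genes 6 were ordered upward and 0 downward. Among the 6, the Fc receptor gene Fcgr1 was at 8.84, 9.76 and 10.53 and the complement gene C1qa at 11.03, 11.19 and 11.61. The exceptions were Adgre1, at 11.54, 11.30 and 11.35 and thus lower in set 3 than in set 1, and Mrc1, at 11.48, 11.43 and 11.56. The macrophage list ran from -0.72 to -0.06 in set 1, from -0.18 to 0.18 in set 2 and from 0.20 to 0.54 in set 3. Between the titles the dendritic cell list ran from -0.71 to 0.51 in tumoral and from -0.92 to 0.54 in peritumoral arrays, and the macrophage list from -0.17 to 0.54 in tumoral and from -0.72 to 0.27 in peritumoral arrays. Of the alveolar macrophage list 0 of 7 genes were upward and 4 downward, with 1.51 in peritumoral 4 and -0.62 to 0.24 in all other arrays. The monocyte list lay at -0.56 to -0.20 in set 1, -0.06 to 0.60 in set 2 and 0.10 to 0.37 in set 3. Its genes were uneven, with 3 of 7 upward and 0 downward. Vcan had medians of 6.47, 8.33 and 9.49, whereas Plac8 had 9.46, 9.60 and 8.97. The sort gene Itgax had medians of 11.65, 11.59 and 11.51, and Itgam 11.08, 11.20 and 11.62. The part of a changing cell mixture in the member values was not tested.

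**Figure D4:**
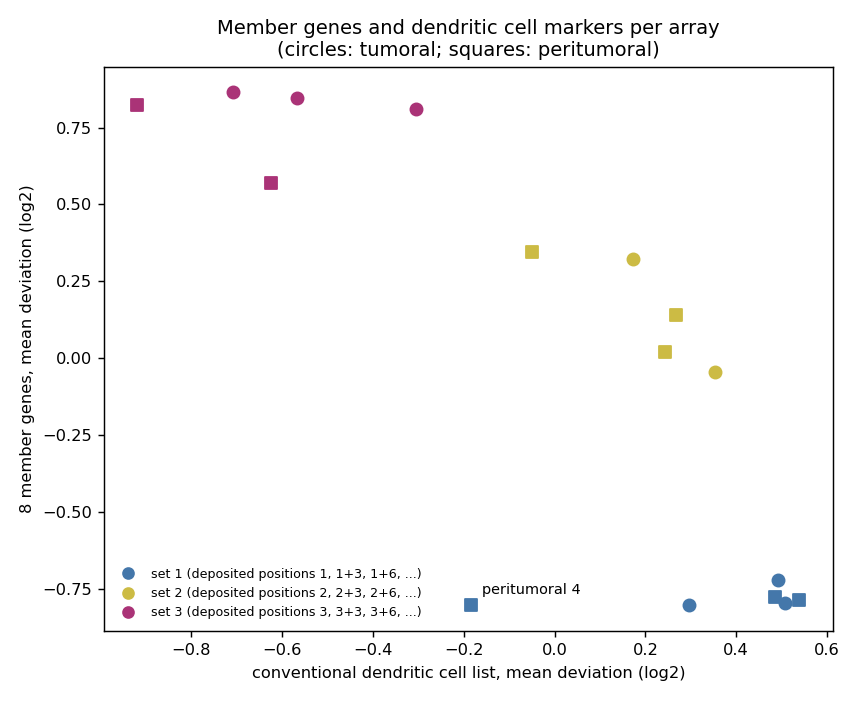
Mean deviation (log2) of the 8 member genes against that of the 8 conventional dendritic cell markers in each array; circles are tumoral arrays, squares are peritumoral arrays, and colours mark the sets of positions. Arrays of set 3 lie at the upper left, with member values of 0.57 to 0.86, and arrays of set 1 at the bottom, with member values of -0.80 to -0.72, where peritumoral 4 is apart from the others on the horizontal axis at -0.18.

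The genes most like each member over the 16 arrays were found by Spearman's rho across all genes outside the 8. For Gpnmb they were Cd200r4, an immunoglobulin-type receptor gene, with a rho of 0.96, Lgals9, which encodes galectin-9, with 0.95, and the autophagy gene Atg13 with 0.95. For Trem2 they were Serf1 (0.98), the complement gene C1qb (0.98) and Tgfbi, a matrix protein gene induced by TGF-beta (0.97). For Msr1 they were Tbl3 (0.99), Tgfbi (0.98) and Timm50, part of the mitochondrial import machinery (0.98). For Ctsk they were the replication licensing gene Cdt1 (0.96), Rai14 (0.96) and the sorting nexin gene Snx2 (0.95). For Cd63 they were Cuta (0.96), Timm10 (0.96) and C1qa (0.96). For Fabp5 they were Ctss (0.98), the ATP-gated channel gene P2rx4 (0.97) and Psap, which encodes the precursor of the saposins that help lysosomal lipid breakdown (0.97). Lpl and Cd36 had less close matches, Trim37 (0.90), Trim23 (0.89) and Bmi1 (0.88) for Lpl, and BC028528 (0.92), Rdx (0.90) and N4bp2l2 (0.87) for Cd36. By Pearson's r the nearest genes were Lgals3bp for Gpnmb (0.94), Ctsa for Trem2 (0.98), Cstb, a cathepsin inhibitor gene, for Msr1 (0.99), Abhd14a for Ctsk (0.97), Cd68, the macrophage lysosomal glycoprotein gene, for Cd63 (0.97) and Osm, the cytokine oncostatin M, for Fabp5 (0.98). Trappc2 (0.90) and Reps2 (0.89) were nearest to Lpl and Cd36.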

How the data were processed

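RNA of each sample was isolated with a miRNeasy kit and turned into biotin-labelled cDNA with whole-transcript kits (Ambion, Affymetrix), per the labels' protocols. The table the authors deposited holds values of 28853 probe sets by 16 arrays, read here as log2 values because they run from 2.31 to 14.33. The sources used here do not give the log base, background correction or normalization, and detection calls and scan batches were not used here. Array medians ran from 6.75 to 6.93 in tumoral and from 6.80 to 6.95 in peritumoral arrays. The number of arrays limits the precision.

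The platform annotation gave 1 symbol for 21789 probe sets, several for 1621 and none for 5443; only the first were used, with the highest-mean probe set per gene (19938 genes). The members and all lists were chosen with earlier results of these data known. The sets of positions, their use as a block and the counts of ordered medians followed after the repeat had been seen, the motifs and the promoters to print after the promoter sequences had been seen, and the search for outlying arrays was widened to all lists after a first pass. Groups were taken from the titles and compared as tumoral minus peritumoral with limma 3.58.1 in R 4.3.3 (14 residual degrees of freedom, Benjamini-Hochberg over all genes, threshold 0.05), which was also tested on simulated data. Genes were named by a rule: the 8 members, the 3 genes nearest to each by Spearman's rho and the nearest by Pearson's r, the 2 of each list with the smallest p, and the sort markers. Genes named with medians by position, and Cdh5, Flt3, Zbtb46, Irf4, Fcgr1 and C1qa as markers, were chosen after their values were seen. The labels do not say that same-numbered arrays of the 2 titles are pairs, so they were not treated as pairs. The correlations of their deviations (3 of 8 over 0.1) cannot settle this, because same-numbered arrays always fall in different sets of positions. Alternatives were replicate blocks, other scalings, filters, variances, weights, probe set rules and tests, and leaving out arrays. The fits without peritumoral 7 and 8 were first set aside after their results were seen and then put back, so that every setting tried is given.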

Additional observations from a re-analysis of the deposited data

Results flagged for a closer look

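Each of the 8 genes and all 24 lists, the members' own list included, was examined for an array far from the other 7 of its title. These were 64 series, of which 11 stood out, and chance flags about 1 in 20. Lists that share genes are not independent. Lpl measured 10.14 in tumoral 2, against 10.52 in the nearest tumoral array. The other 10 were all list values of peritumoral 4, as mean log2 deviations, each set here against the nearest peritumoral array. The endothelial list was at 3.66 with 1.44 in the nearest, the B cell list at 2.39 with 0.249, and the NK cell list at 2.19 with 0.0014. The fibroblast list was at 1.998 with 0.498, the lung epithelial list at 1.97 with 0.503, and the alveolar macrophage list at 1.51 with 0.214. The T cell list was at 1.15 with 0.379, the carcinoma or keratin list at 1.04 with 0.319, the list of lipoprotein lipase partners at 0.554 with 0.131, and the adipocyte list at 0.36 with 0.0938. Peritumoral 4 was also the lowest array of Trem2, Msr1, Cd63 and Fabp5 and the highest of Cd36. The part of these other cell types in the values of the 5 genes was not tested.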

How the results depend on the processing

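The differences of Cd63, Fabp5, Ctsk, Lpl and Cd36 kept their direction in all 32 alternatives. In several of these the difference itself could not change, so its direction was fixed in advance. They were the rank-sum test, the stricter threshold, the filter on mean value, the other variance setting and the replicate blocks. The mean of all probe sets could change Fabp5 alone. No member passed the threshold in 31 of the 32 alternatives. The exception, added after the data were seen, had deposited position as a block and left out peritumoral 7 and 8. In it Cd63 (0.86, limma adjusted p = 0.000310), Fabp5 (0.42, adjusted p = 0.0103) and Ctsk (-0.82, adjusted p = 0.0177) passed. That fit called 2052 of the 19938 genes, with Trem2 at -0.13 and Msr1 at -0.16. Leaving out these arrays without the block called 522 genes, with Trem2 at -0.14 and Msr1 at -0.18. Both arrays were picked from values of these data, so these 2 fits support nothing. Trem2 turned negative with quantile normalization (-0.0162), cyclic loess (-0.0367) and array weights (-0.0216), and Msr1 with cyclic loess (-0.0171) and array weights (-0.00344). Among the other alternatives added after the data were seen, Trem2 and Msr1 were -0.31 and -0.47 without peritumoral 4 and 7, -0.0799 and -0.11 with deposited position as a block, and -0.16 and -0.20 with that block and without peritumoral 4. Leaving out each array in turn gave -0.40 to 0.20 for Gpnmb, -0.15 to 0.14 for Trem2, -0.22 to 0.25 for Msr1, -0.70 to -0.15 for Ctsk, 0.56 to 0.85 for Cd63, 0.25 to 0.55 for Fabp5, 0.0499 to 0.15 for Lpl, 0.13 to 0.43 for Cd36, 4 to 7 members higher in tumoral arrays, and 0 to 128 genes called. Without peritumoral 4 and 7, 88 genes were called, and with the position block and without peritumoral 4, 8 were; the cause was not tested. With the replicate number as a replicate block 0 genes were called and 6 members were higher. Each number holds 1 array of each title, so this block could not change a difference and the 6 restates the main fit. In 1 of 8 cases an array correlated best with its own number, but same-numbered arrays always fall in different sets of positions, so this check cannot show whether the numbers pair the arrays. Of the 24 nearest genes by Spearman's rho only 4 were among the nearest by Pearson's r. The set medians of Gpnmb, Trem2, Msr1, Ctsk, Cd63 and Fabp5 kept their upward order under quantile normalization, cyclic loess and centring on array medians.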

Other observations

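Markers of further cell types also differed between the sets of positions, and values are given for these lists without a test. The lung epithelial list lay at -0.09 to 1.97 in set 1, -0.07 to 0.36 in set 2 and -0.72 to -0.58 in set 3. Of its 9 genes 6 were ordered downward and 1, Cdh1, upward. The B cell list lay at -0.10 to 2.39, -0.17 to 0.41 and -0.88 to -0.54, with 2 of its 4 genes ordered downward and 0 upward. The mean of the platelet and erythrocyte list had the opposite order, at -0.45 to -0.01, -0.17 to 0.19 and 0.29 to 0.46. Its genes were split: of 5, the chemokine genes Ppbp and Pf4 were ordered upward and Itga2b and Gp9 downward. In the first 2 lists the highest value was that of peritumoral 4.
Between the titles no gene of the marker lists passed (limma, adjusted over all genes), and the smallest adjusted p was 0.232, for the epithelial gene Hopx with a log2 difference of -0.57, tumoral minus peritumoral. The endothelial genes Cav1 and Cdh5 had differences of -1.51 and -1.70, and the fibroblast gene Dcn, which encodes the matrix protein decorin, one of -2.02. The monocyte genes Ms4a4c and Cd14 had differences of 0.50 and 0.31. Of the 7 genes of that list 4 were higher and 3 lower, the lower ones being Vcan (-0.90), F13a1 (-0.36) and Fn1 (-0.11). Peritumoral 4 was also the highest array of the neutrophil list, at 1.58.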
